A study of Rattus norvegicus with 6 samples.

Results

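Hox genes were described in the ileum of 6 Zucker fa/fa rats. They are the genes whose array annotation gives a single symbol made of Hox, a cluster letter from a to d and a paralog number. The rule found 22 genes, each with 1 row, among the 14506 genes tested. The rats were 20 weeks old and carry the fa/fa genotype, which makes them obese because the receptor for leptin does not work. A duodenum-jejunum bypass (DJB) in 3 rats sent food past the duodenum and upper jejunum, and bile and pancreatic juice joined it further down. In the other 3 the gut was cut and rejoined in its normal course (sham). Ileum was taken 14 days after surgery, and the RNA of each rat was measured on 1 Affymetrix rat whole-transcript array. No lean or unoperated rats were analysed here, so the sham rats are the reference for every difference. No Hox gene passed the test after the bypass. The brightest Hox rows of the ileum carried low or middle paralog numbers, and the largest differences, 0.43 for Hoxb13 and 0.29 for Hoxd13 on the log2 scale, were on dim rows of the rear end of the clusters.

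Hox genes encode homeodomain transcription factors and lie in 4 clusters, Hoxa to Hoxd. Within a cluster the genes are ordered by paralog number, and that order matches the head-to-tail order in which embryonic tissues use them: low numbers act towards the head and high numbers towards the tail. In the gut they are known chiefly from the embryonic mesenchyme that becomes muscle and connective tissue, and the posterior member Hoxb13 is known from hindgut and prostate. Their proteins bind DNA with TALE cofactors of the Meis and Pbx families, and Polycomb and Trithorax proteins hold the clusters silent or active.

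The RefSeq gene table of the assembly GRCr8 lists 39 rat Hox genes, in paralog order in each of the 4 clusters. The 22 measured here were 5 of 11 Hoxa genes on chromosome 4, 7 of 10 Hoxb genes on chromosome 10, 4 of 9 Hoxc genes on chromosome 7 and 6 of 9 Hoxd genes on chromosome 3. The other 17 were not analysed here, among them Hoxa3, Hoxa9, Hoxa10, Hoxb5, Hoxb6, Hoxc6, Hoxc8 and Hoxd8. The RefSeq spans of Hoxa4 and Hoxa5 overlap that of Hoxa3, and those of Hoxc4 and Hoxc5 overlap that of Hoxc6, so the signal of these 4 rows may include longer transcripts of the neighbour.

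Hox promoters are known for a high density of CG dinucleotides, a feature of the DNA to which Polycomb and Trithorax complexes are drawn. A 300-base promoter window was found for 11 of the 22 genes, all in Hoxa, Hoxc or Hoxd and none in Hoxb. The window runs from 250 bases before the start to 50 after it, from RefSeq on GRCr8. Of these, 3 are shown with each CG in capitals. Hoxd1 and Hoxd13 stand at the front and rear ends of 1 cluster, and Hoxa4 is 1 of the 2 genes whose DJB and sham values did not overlap. They lie at chr3:80072791-80073090 on the plus strand (Hoxd1), chr3:79977827-79978126 on the plus strand (Hoxd13) and chr4:82622253-82622552 on the minus strand (Hoxa4).
Hoxd1: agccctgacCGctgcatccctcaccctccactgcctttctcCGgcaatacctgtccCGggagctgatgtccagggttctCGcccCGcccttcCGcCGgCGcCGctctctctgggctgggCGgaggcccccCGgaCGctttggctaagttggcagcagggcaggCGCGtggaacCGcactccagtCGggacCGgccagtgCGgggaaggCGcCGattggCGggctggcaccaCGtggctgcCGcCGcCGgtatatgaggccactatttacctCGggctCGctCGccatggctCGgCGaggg
Hoxd13: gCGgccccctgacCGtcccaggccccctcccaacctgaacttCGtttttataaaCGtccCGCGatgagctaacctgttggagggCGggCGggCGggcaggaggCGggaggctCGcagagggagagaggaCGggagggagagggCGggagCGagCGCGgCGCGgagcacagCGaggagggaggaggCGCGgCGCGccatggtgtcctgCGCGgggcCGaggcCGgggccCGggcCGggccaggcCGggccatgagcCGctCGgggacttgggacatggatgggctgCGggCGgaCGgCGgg
Hoxa4: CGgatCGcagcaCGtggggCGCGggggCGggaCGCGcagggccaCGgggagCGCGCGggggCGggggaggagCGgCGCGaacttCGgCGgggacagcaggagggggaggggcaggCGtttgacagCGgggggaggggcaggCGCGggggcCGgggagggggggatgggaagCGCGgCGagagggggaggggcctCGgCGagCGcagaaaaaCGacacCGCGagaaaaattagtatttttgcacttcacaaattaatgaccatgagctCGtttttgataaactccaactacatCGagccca

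The 3 windows held 30, 36 and 34 CG dinucleotides in the order Hoxd1, Hoxd13, Hoxa4. Over all 33469 promoters of this length the median was 7 and the upper quartile 19. As many CGs as Hoxd13 were found in 5.43% of all promoters, as many as Hoxa4 in 6.82% and as many as Hoxd1 in 10.3%. The 11 Hox windows had a median of 24 and ran from 6 in Hoxc4 to 36 in Hoxd13, and Hoxa2, with 9, and Hoxd4, with 12, also lay at the sparse end. TTTATNG, a form of the binding motif of the intestinal factor Cdx2, searched on both strands, was in none of the 11 windows and in 11.3% of all promoters. The Hoxd13 window holds TTTATAA, which differs from it in the last base only. G and C made up a median of 62.7% of the Hox windows, against 51.7% over all promoters. A motif rich in A and T is less likely in such windows by composition. Such matches are a description of these letters and say nothing of where a factor binds.

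The values are RMA-normalised and on the log2 scale, and array medians over all rows ran from 6.08 to 6.19. Both the lining and the wall of the gut were in the samples: in sham the epithelial markers Epcam and Vil1 lay at 12.1 and 12.6, the smooth muscle gene Acta2 at 11.8 and the intestinal factor Cdx2 at 10.2. In bulk tissue, fewer cells of a type and less RNA per cell cannot be told apart. A row's level depends on how its own probes respond, so the levels of different genes are listed below without a test between them. A mean of 6 is near 6.11, the median of all rows. In contrast, 187 receptor genes of the nose (53 olfactory, 134 vomeronasal) had a median of 2.99, and 0 of them had a mean of 6 or more. That reference was picked by gene name after the Hox levels were seen, and was not matched to the Hox rows in probe base content. A row above it is thus not shown to be expressed. Of the 22 Hox genes, 18 lay above the 95th percentile of the reference, 4.74. The other 4 were Hoxa11, Hoxb9, Hoxc9 and Hoxc12. Means over all 6 arrays were used for this. Hoxb13, at 4.76, lay above only with the DJB arrays: its mean was 4.55 in sham and 4.98 after DJB.

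Only 6 of the 22 Hox genes had a mean of 6 or more over the 6 arrays, and all 6 had a paralog number from 1 to 7: Hoxd1, Hoxb3, Hoxb4, Hoxa5, Hoxa7 and Hoxb7. Hoxb7 was just inside at 6.01, and Hoxa4 just outside at 5.78. The Hoxb7 mean was 5.92 in sham and 6.09 after DJB. The count was 5 without sham 2, DJB 1 or DJB 2. None of the 8 genes numbered 9 to 13 reached it. Their sham means ran from 3.80 (Hoxc9) to 5.64 (Hoxd9), against 4.84 to 7.45 for the 9 genes numbered 4 to 8 and 5.09 to 6.59 for the 5 numbered 1 to 3. By cluster, the genes at 6 or more were 3 of 7 in Hoxb, 2 of 5 in Hoxa, 1 of 6 in Hoxd and 0 of 4 in Hoxc. The other 16 Hox genes had a mean under 6, where 37.45% of all genes tested did.

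**Figure D1:**
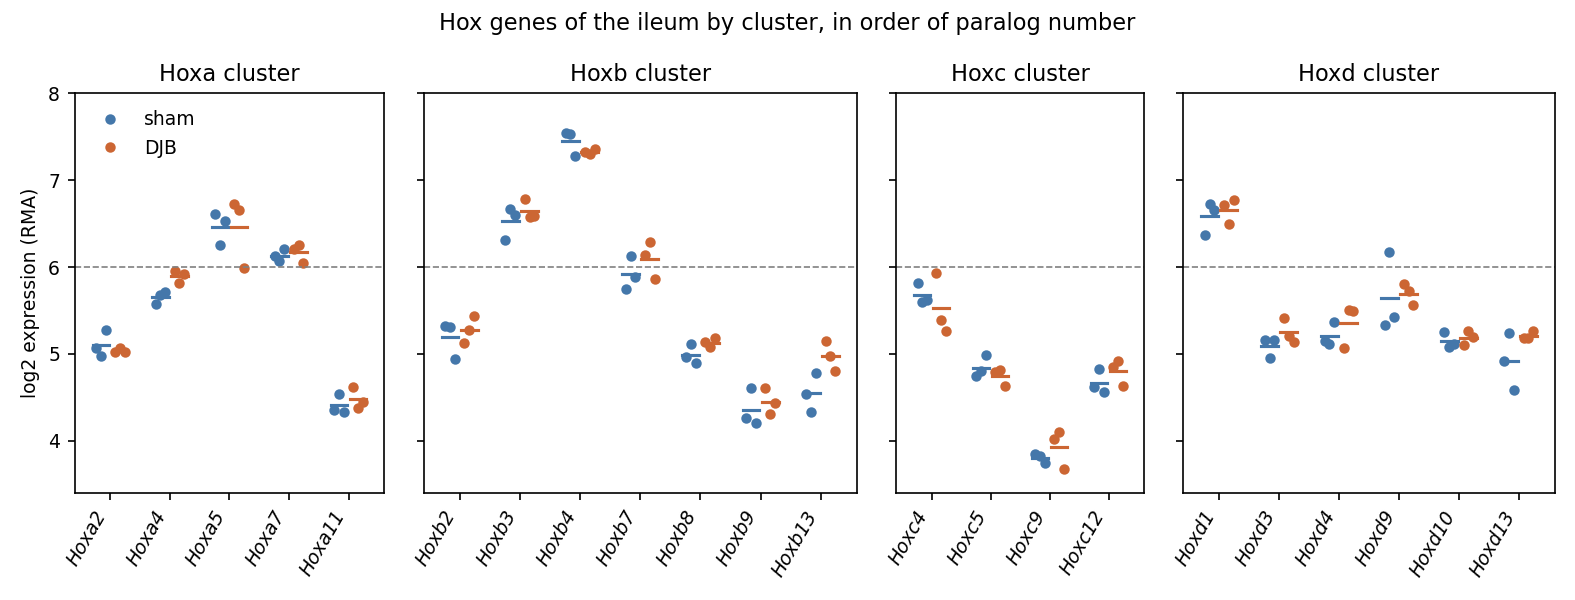
Log2 expression of the 22 Hox genes, 1 panel per cluster with genes in order of paralog number; points are single arrays (3 sham, 3 DJB), short bars are group means and the dashed line marks 6. Points above the line belong mainly to paralogs 1 to 7, and sham and DJB points overlap for all genes except Hoxa4 and Hoxb13.

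At the front of the clusters, Hoxd1, the only paralog 1 gene measured, read 6.37, 6.73 and 6.66 in sham and 6.72, 6.50 and 6.77 after DJB. The groups overlapped, with a difference (DJB minus sham) of 0.08 ± 0.13 (SE; limma adjusted p = 0.825). The paralog 2 genes Hoxa2 and Hoxb2, known for patterning the hindbrain, had sham means of 5.11 and 5.19 and differed by -0.07 and 0.09. Hoxb3 read 6.53 ± 0.19 (SD, n = 3) in sham and 6.65 ± 0.12 (SD, n = 3) after DJB. Hoxd3 read 5.16, 4.95 and 5.16 in sham and 5.41, 5.21 and 5.13 after DJB, where the lowest DJB array lay inside the sham range (difference 0.16 ± 0.11, adjusted p = 0.555).

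Hoxb4, also studied as a factor of blood stem cells, had the highest signal of the Hoxb rows, with 7.54, 7.54 and 7.28 in sham and 7.32, 7.30 and 7.36 after DJB. All 3 DJB values fell between the lowest and the next sham value, and the difference of -0.13 ± 0.10 did not pass (adjusted p = 0.624). Its 95% interval, from -0.36 to 0.11, spans 0.779-fold to 1.08-fold.

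Hoxa4 showed the tightest replicates of the family, with 5.58, 5.68 and 5.72 in sham and 5.95, 5.82 and 5.92 after DJB. Each DJB array lay above each sham array. The difference was 0.23 ± 0.09 (unadjusted p = 0.0340 in limma), and it missed the threshold over all genes (adjusted p = 0.307; 0.325 to 0.586 when 1 array was left out or arrays were rescaled or blocked).

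Hoxc4 went the other way on average, with 5.82, 5.60 and 5.62 in sham and 5.94, 5.39 and 5.26 after DJB. DJB 1 was the highest of the 6 arrays and the other two DJB arrays were the lowest. The difference of -0.15 ± 0.17 (adjusted p = 0.743) was -0.35 without DJB 1 (adjusted p = 0.279) and -0.01 without DJB 3. Hoxd4 had sham and DJB means of 5.21 and 5.36, so the 4 paralogs of number 4 differed by -0.15 to 0.23 with no common sign.

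Hoxa5, which in mice is needed for the normal maturation of the gut lining, read 6.61, 6.26 and 6.53 in sham and 6.73, 6.66 and 5.99 after DJB. DJB 3 was the lowest of the 6 arrays and DJB 1 and DJB 2 the highest, and the means of 6.46 and 6.46 did not part (difference -0.01 ± 0.19, adjusted p = 0.989). Without DJB 3 the difference was 0.23 (adjusted p = 0.490). Hoxc5, at 4.84 in sham, differed by -0.09.

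Hoxa7 read 6.12, 6.07 and 6.20 in sham and 6.20, 6.26 and 6.05 after DJB (difference 0.04 ± 0.10, adjusted p = 0.890). Hoxb7 read 5.74, 6.12 and 5.88 in sham and 6.14, 6.29 and 5.86 after DJB. Its difference of 0.18 ± 0.14 (adjusted p = 0.610) had the largest size among the 6 genes with a mean of 6 or more, and was 0.30 without DJB 3 and 0.08 without DJB 2. The sham mean of 5.92 lay under 6, so Hoxb7 entered these 6 genes only with the DJB arrays. Hoxb8 read 4.96, 5.12 and 4.90 in sham and 5.14, 5.08 and 5.18 after DJB. Only its sham 2 value reached into the DJB range (difference 0.14 ± 0.10, adjusted p = 0.569).

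Towards the tail end, both paralog 13 genes had the largest differences of the family, on rows under 6. Hoxb13, a gene of the most posterior gut, read 4.53, 4.34 and 4.78 in sham and 5.15, 4.98 and 4.80 after DJB. The groups did not overlap, but DJB 3 and sham 3 were nearly level. The difference was 0.43 ± 0.14, or 1.34-fold with a 95% interval from 1.08 to 1.67, and it missed the threshold over all genes (unadjusted p = 0.0130, adjusted p = 0.215 in limma). Leaving out 1 array gave 0.32 to 0.54 with adjusted p from 0.203 to 0.413.

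Hoxd13, which patterns digits and the hind end of the gut and urogenital tract, read 4.92, 5.24 and 4.59 in sham and 5.18, 5.18 and 5.26 after DJB. The sham arrays spread widely (SD 0.33) while the DJB arrays lay close together (SD 0.04), and sham 2 was inside the DJB range. The difference of 0.29 ± 0.15 did not pass (adjusted p = 0.430), and it was 0.13 without sham 3 and 0.45 without sham 2. The other 6 genes numbered 9 to 12 differed by 0.04 (Hoxd10) to 0.13 (Hoxc9 and Hoxc12). Among them Hoxd9 had the widest sham spread, 5.34, 6.17 and 5.42, from its sham 2 array.

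**Figure D2:**
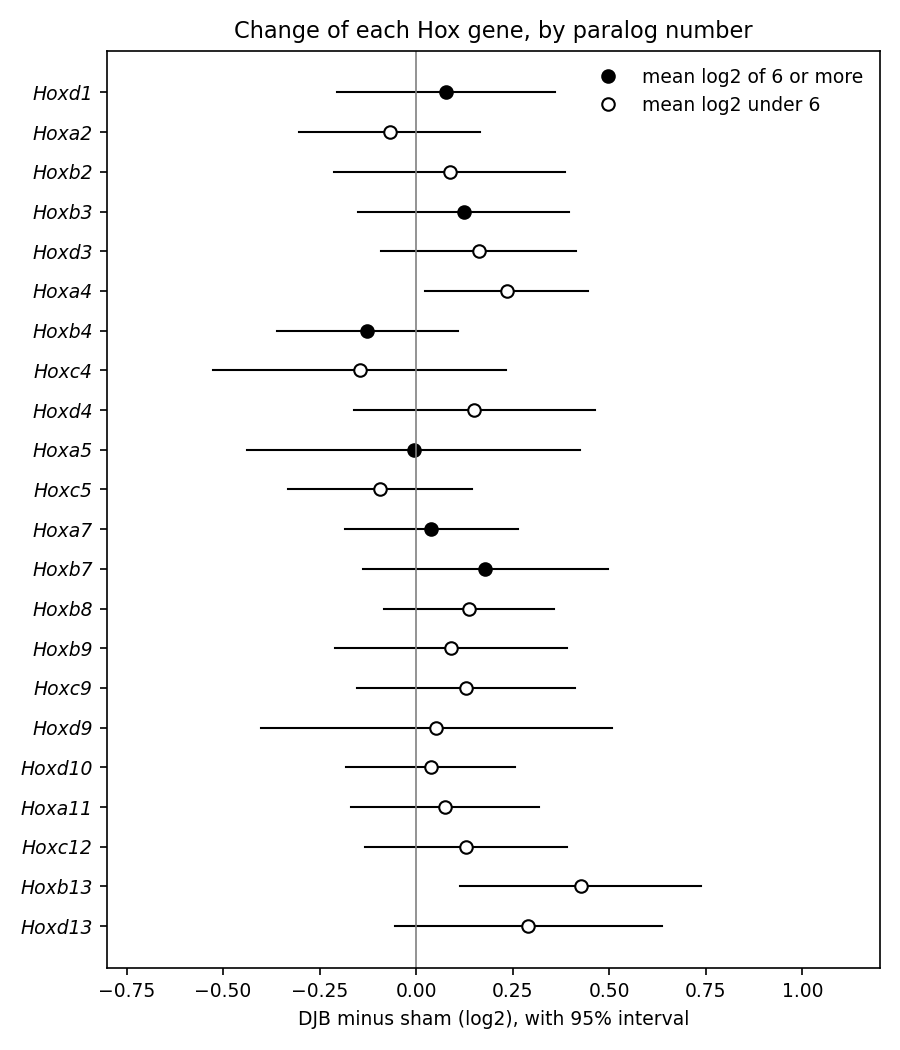
DJB minus sham on the log2 scale for each Hox gene, from paralog 1 at the top to paralog 13 at the bottom; lines are 95% intervals from limma and filled points are genes with a mean of 6 or more. The intervals of Hoxa4 and Hoxb13 lie to the right of 0 before adjustment, and 20 cross it.

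Across the family, 0 of the 22 Hox genes passed the adjusted threshold of 0.05 in limma, where 0.772% of all genes did (57 higher and 55 lower). The smallest adjusted p was 0.215. At an unadjusted p under 0.05 there were 2 Hox genes, Hoxa4 and Hoxb13, or 9.09%, against 14.3% of all genes. The same 2 were the genes whose groups did not overlap, 9.09% against 21.1% of all genes. Both shares lay under the background, but each rests on 2 of 22 genes and is not read as a trait of the family. The background is not matched in level: 16 of the 22 Hox genes had a mean under 6, against 37.45% of all genes.

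The absence of a call does not show equal levels, but the intervals bound the size. The SEs ran from 0.09 to 0.20. No Hox interval reached a 2-fold change in either direction, and those of 2 genes, Hoxb13 and Hoxd13, reached 1.5-fold. The lowest bound of all was 0.695-fold, for Hoxc4. Values of dim rows can understate fold changes on these arrays, so the bounds of the 16 genes under 6 hold for the signal and not for the transcript.

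The differences were positive for 17 of 22 Hox genes (77.3%), where 61.7% of all genes were positive. The median was 0.09 for the Hox genes and 0.05 for all genes. The median size, without sign, was 0.12 in both. All 8 genes numbered 9 to 13 were positive (median 0.11), as were 4 of the 5 numbered 1 to 3 (median 0.09) and 5 of the 9 numbered 4 to 8 (median 0.04). Array means over the 8 genes numbered 9 to 13 overlapped between groups, at 4.59 to 4.83 in sham and 4.75 to 4.92 after DJB. Hoxd10 turned negative when quantile normalisation was repeated, and Hoxd9 without sham 1, sham 3 or DJB 1. Without sham 3, Hoxa2 turned positive and Hoxb2 negative. Hoxd1 turned negative without sham 1 and Hoxa7 without DJB 2, and Hoxa5 turned positive without sham 1, sham 3 or DJB 3. The replicate spread within groups had a median SD of 0.16 for the Hox genes and 0.14 for all genes.

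**Figure D3:**
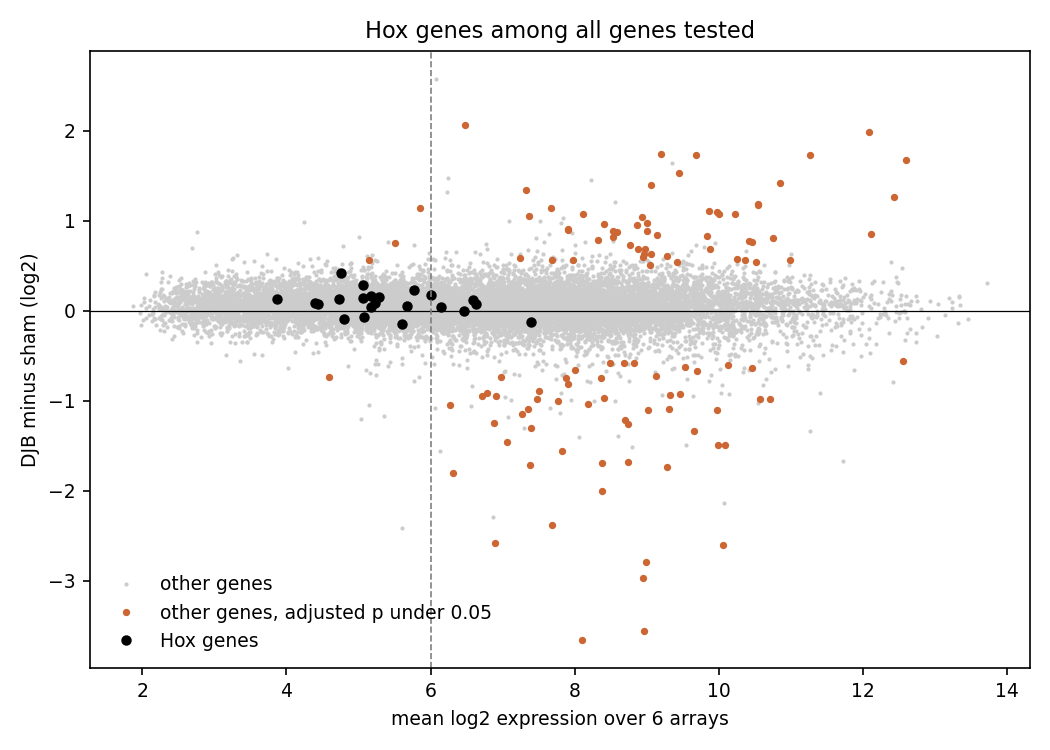
DJB minus sham (log2) against the mean log2 expression of the 6 arrays for all 14506 genes tested; black points are the 22 Hox genes, orange points other genes with an adjusted p under 0.05, and the dashed line marks 6. The Hox genes lie between -0.15 and 0.43, and the smallest change in size of any gene called was 0.51.

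Averaged over the 22 Hox genes, the arrays deviated from the sham mean by -0.03, 0.05 and -0.02 in sham and by 0.15, 0.10 and 0.02 after DJB. The groups overlapped, and DJB 1, the highest, was also the array on which all genes averaged 0.12 above sham. Over the 6 brighter Hox genes the DJB arrays stood at 0.14, 0.08 and -0.08.

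Markers of the cell types in the ileal wall did not pass the limma test either, with 0 called in each list. At an unadjusted p under 0.05, 4 of 7 fibroblast, 3 of 6 myeloid, 1 of 8 smooth muscle and 1 of 7 epithelial markers were higher and 1 of 4 adipocyte markers lower. Over all genes 9.82% were higher and 4.45% lower by that measure. Smooth muscle markers were positive in 7 of 8, with a median of 0.22. Per array their mean level was 9.50 to 9.93 in sham and 9.78 to 10.03 after DJB, and Acta2 differed by 0.25 ± 0.10 (adjusted p = 0.303). Fibroblast markers were positive in 5 of 7, with a median of 0.52 and mean levels of 8.74 to 9.03 in sham and 8.84 to 9.41 after DJB, led by Col1a1 at 0.71 ± 0.21 (adjusted p = 0.190). DJB 1 was the highest and DJB 3 the lowest of the DJB arrays on both of these lists and for the Hox genes, but that order was not confined to them. The mean difference from the sham mean over all genes tested was 0.12 in DJB 1, 0.0057 in DJB 2 and -0.0006 in DJB 3, and the endothelial, neural and adipocyte lists had the same order.

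Epithelial markers had a median of 0.10, with mean levels of 11.96 to 12.04 in sham and 12.02 to 12.09 after DJB, and Epcam differed by 0.21 ± 0.09 (adjusted p = 0.338). Myeloid markers were positive in 5 of 6 (median 0.24), with mean levels of 7.91 to 8.05 in sham and 8.07 to 8.18 after DJB, and Cd163 differed by 0.45 ± 0.14 (adjusted p = 0.189). Markers of neurons and glia (median -0.10 over 6), lymphocytes (0.02 over 7), endothelium (-0.05 over 4) and adipocytes (0.06 over 4) had overlapping arrays. The genes of lowest p in these lists were Ret (-0.20), Ms4a1 (-0.73), Kdr (-0.06) and Cidec (-0.62), and none passed. They do not stand for their lists: positive differences were found in 1 of 6 neural, 4 of 7 lymphocyte, 1 of 4 endothelial and 2 of 4 adipocyte markers. The part of these cell types in the Hox values was not tested.

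**Figure D4:**
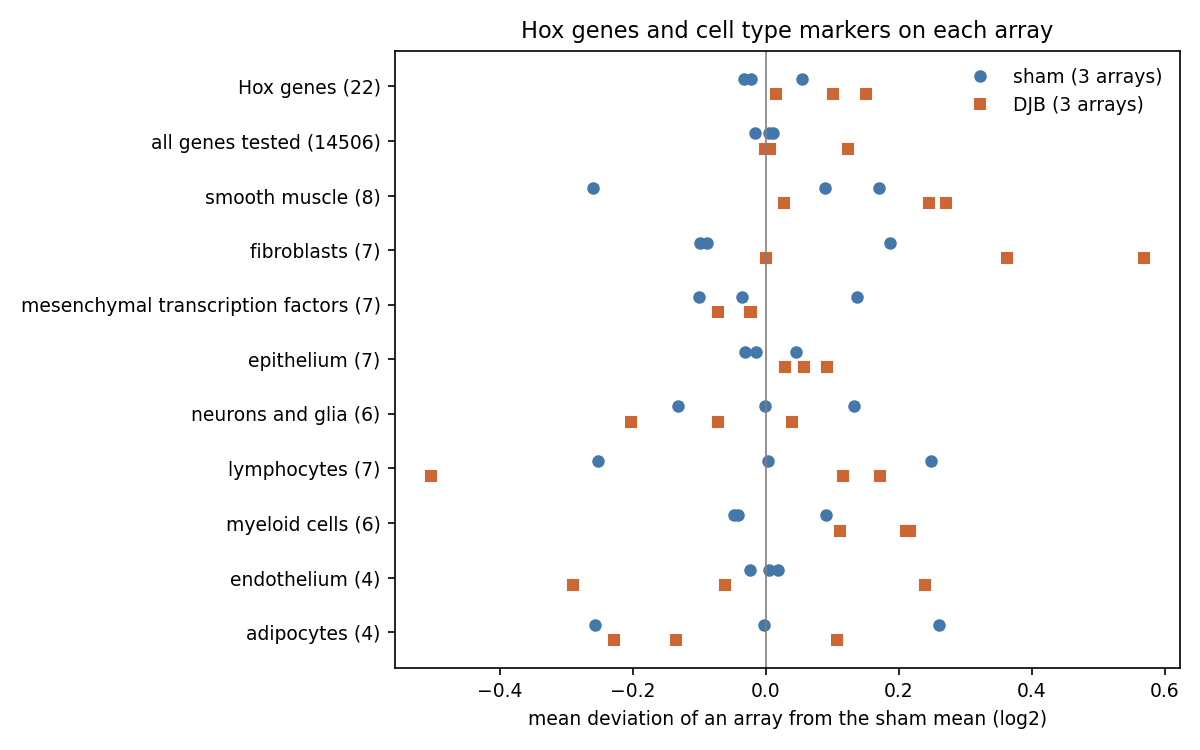
Mean deviation of each array from the sham mean (log2) over the Hox genes, all genes tested and the markers of each cell type, with the number of genes in brackets; circles are the 3 sham arrays and squares the 3 DJB arrays. For the Hox genes the sham arrays reach 0.05 and the DJB arrays start at 0.02, so the groups overlap.

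Of 7 TALE cofactors, the DNA-binding partners of Hox proteins, 0 passed in limma in either direction and 1 was lower at an unadjusted p under 0.05, as were 4.45% of all genes. Meis2 differed by -0.29 ± 0.13 (adjusted p = 0.350), Pknox1 by 0.11 ± 0.11 and Meis3 by 0.09 ± 0.12. Of the Cdx and ParaHox genes, relatives of the Hox family, 3 were measured and 0 passed, also at an unadjusted p under 0.05. Cdx2 read 10.12, 10.11 and 10.28 in sham and 10.14, 10.30 and 10.15 after DJB, a difference of 0.03 ± 0.10. Cdx4, a dim row, differed by 0.27 ± 0.13 (adjusted p = 0.398), and Gsx2 by 0.07 ± 0.12.

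Of 14 Polycomb genes 0 passed in limma, 0 also at an unadjusted p under 0.05, and the median was 0.01. Phc1 (-0.20), Phc2 (-0.18) and Cbx2 (-0.15), parts of the complex that compacts chromatin, had the smallest p. Of 8 Trithorax genes 0 passed and 1 was higher at an unadjusted p under 0.05, as were 9.82% of all genes, and the median was again 0.01. Wdr5, a core subunit of the complexes that methylate histone H3 on active genes, read 8.48, 8.31 and 8.53 in sham and 8.92, 8.59 and 8.81 after DJB. Its groups did not overlap, but the difference of 0.34 ± 0.12 did not pass (adjusted p = 0.241). Ash2l differed by 0.12 and Dot1l by -0.09.

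Retinoic acid, which switches on anterior Hox genes in embryos, is made by enzymes of the Aldh1a family and cleared by those of the Cyp26 family. Of 14 genes of the pathway 0 passed in limma, with 1 higher and 1 lower at an unadjusted p under 0.05, near the 14.3% of all genes in either direction. Aldh1a1, which makes retinoic acid, read 8.13, 8.43 and 8.24 in sham and 8.31, 7.24 and 6.53 after DJB, so that DJB 1 stayed within the sham range and the other two DJB arrays were lower (difference -0.91 ± 0.36, adjusted p = 0.298). Cyp26b1, which degrades it, differed by 0.26 ± 0.11, and Aldh1a2 by 0.28 ± 0.14. Among 15 genes that flank the 4 clusters 0 passed in limma, 0 also without adjustment, and the median was 0.06, with Lnpk near Hoxd at 0.14, Tax1bp1 near Hoxa at 0.14 and Snx11 near Hoxb at 0.15. Of 7 mesenchymal transcription factors 0 passed, 0 also without adjustment, with Gli1 at -0.10, Tcf21 at -0.07 and Hand1 at -0.08.

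Of 4 markers of position along the gut that were measured, 1 passed. Slc10a2, the bile acid transporter of the ileum, rose by 1.73 ± 0.22 (adjusted p = 0.0106), while Gata4, a factor of the upper small intestine, differed by -1.18 ± 0.23 (adjusted p = 0.0643) and Fabp6, the ileal bile acid binding protein, by 0.30 ± 0.10 (adjusted p = 0.230). No Hox gene had a difference of the size of those of Slc10a2 and Gata4. The largest, that of Hoxb13, was 0.43, on a dim row with a mean of 4.76. The smaller value of Fabp6 came from a row with a mean of 13.7, near the top of the scale. Whether changes were compressed at either end was not tested, so Hoxb13 and Fabp6 are not ranked by size.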

How the data were processed

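Ileum RNA of 6 rats (3 DJB, 3 sham) was measured on 1 array each. The deposited table holds log2 expression values of 29214 rows, made with RMA per the submitters' processing notes, which name no other method. RMA gives the arrays nearly equal distributions and so can hide a shift common to most genes. DJB 1 averaged 0.12 above the sham mean over all genes, while DJB 2 and DJB 3 differed from it by 0.0057 and -0.0006. The source of the DJB 1 offset was not tested. The genome build, scan dates and batches are not given in the sources used here. Columns were assigned to samples by their names.

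Rows with 1 gene symbol in the platform annotation (15310) were kept, with the row of highest mean for each gene. All 22 Hox symbols were found in RefSeq (GRCr8) under the same gene ID, and 16 matched also by transcript accession. Those without that match were Hoxa4, Hoxa5, Hoxb2, Hoxb8, Hoxd3 and Hoxd9. The fit was limma 3.58.1 in R 4.3.3 (lmFit, eBayes, no covariate, no filter, two-sided, Benjamini-Hochberg over 14506 genes, threshold 0.05), and it was tested on simulated data. Intervals are 95% from the moderated fit. The labels call the rats biological replicates, and with 3 arrays a group the precision is low.

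The labels do not say that the replicate numbers pair the arrays. The deviations of same-numbered arrays from their group means correlated at 0.01, -0.12 and -0.15 over all genes. Differently numbered arrays reached 0.17. Deviations within a group of 3 sum to 0, so these correlations are tied together and cannot settle a pairing. The members and lists were chosen with earlier results of these data known. Values are given per array for any Hox gene past the threshold, for the gene of highest sham mean and of largest change at a mean of 6 or more in each cluster, and for the 6 of smallest p. From the other lists come any gene past the threshold and up to 3 of lowest p, and Vil1, Hoxd9 and the sham levels of other genes were added after their values were seen. Plots and motif counts used Python 3.11.15 and matplotlib 3.10.9. Protein sequences were not used here.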

Additional observations from a re-analysis of the deposited data

How the results depend on the processing

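The count of Hox genes called stayed at 0, in both directions, under each alternative run: the replicate block, repeated quantile normalisation, median centring, both filters on dim rows, an intensity trend with robust eBayes, all rows tested, the mean of a gene's rows, and each array left out. With the replicate number as a block, 27 genes of the whole table were higher and 23 lower. Without genes of mean under 6 these counts were 127 and 92, without genes under the median of all rows 129 and 96, and with the trend and robust fit 189 and 124. Leaving out 1 array gave 22 to 38 higher and 10 to 70 lower. The median Hox change of 0.09 was 0.040 after repeated quantile normalisation, 0.039 over the 5 genes above the median of all rows, and 0.067 to 0.14 with 1 array left out. Over all genes the median was 0.05 in the main run and 0.013 after repeated quantile normalisation. With 1 array left out the sign turned for Hoxa2 and Hoxb2 (without sham 3), Hoxd9 (without sham 1, sham 3 or DJB 1), Hoxa5 (-0.14 to 0.23), Hoxa7 (-0.0049 to 0.10) and Hoxd1 (-0.032 to 0.16). The number of Hox genes over the level threshold was 16 at a threshold of 5 and 1 at 7. The cause of these shifts was not tested. Signal over background limits the 16 genes under 6, where changes can be compressed.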
